A study of Mus musculus with 4 samples.

Results

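The TGF-beta, activin and BMP signalling genes were followed in NIH3T3 cells, a continuous fibroblast line from mouse embryos. The cells carried wild-type EGFR, the receptor tyrosine kinase for epidermal growth factor, or a deletion mutant of it. The set held 55 genes, chosen by name as the ligands, receptors, SMAD proteins, targets and antagonists of the pathway, and 80 non-control probes carried those names. Of them, 23 genes belonged to the TGF-beta/activin arm, 24 to the BMP arm and 8 to both. A gene was tested if its probe stood well above background in the whole of at least 1 group, which held for 45 genes among 17015 named genes and 18093 features tested in all.

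Both groups expressed a form of EGFR per the labels, and parental cells without it were not analysed here. The labels record no treatment and give expression at steady state, with 2 one-colour Agilent arrays per group. Which residues the deletion removes, from which species the receptor came, and whether a group was a clone or a pool are not stated. They speak of independent cDNA preparations and not of separate cultures, so the p-values rest on the spread between arrays alone, and that spread may be technical.

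Ligands of the family bind a pair of type I and type II serine/threonine kinase receptors, which phosphorylate receptor SMADs. TGF-beta and activin act mainly through SMAD2 and SMAD3, and BMPs through SMAD1, SMAD5 and SMAD9, and both sets join SMAD4 in the nucleus. Fibroblasts answer TGF-beta by making matrix and contractile proteins, whereas the ID genes are the classic targets of BMP. Secreted antagonists, latent TGF-beta binding proteins, inhibitory SMADs and nuclear corepressors set how strong the signal is.

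The 4 arrays shared 1 slide. The second number of the slide position was 2 for both wild-type arrays and 3 for both mutant arrays, so that position and group cannot be told apart. Between 42.9% and 46.9% of probes were well above background, with the lower shares in the mutant, and no spot was saturated. Of the fibroblast markers, 10 of 10 were detected on all 4 arrays. Cdh1 and Epcam (epithelium), Cdh5, Tek and Vwf (endothelium) and Ptprc (leukocytes) were detected on none, while 2 of 10 epithelial, 2 of 10 endothelial and 5 of 9 leukocyte markers were detected on all 4. The mouse Egfr probe that was chosen was at background in the mutant arrays and at least 11.5-fold lower there than in the wild-type arrays. Since the species of the receptor is not given, that probe does not check the labels.

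Values are log2 signals relative to the 75th percentile of the array, and a change is the mutant mean minus the wild-type mean (± SE, n = 2 arrays per group). A gene rose or fell if the limma p-value, adjusted over all 18093 features, was under 0.05. The change was wide across the transcriptome: 58.8% of features passed, 34.6% higher and 24.2% lower in the mutant. Among the 45 tested genes of the set, 16 rose (35.6%), 19 fell (42.2%) and 10 did not pass. The share that rose was therefore near that of all features and the share that fell was above it. At a fitted change of at least 2-fold, 6 rose and 12 fell (13.3% and 26.7%, against 5.94% and 7.46% of features). Because 5 genes, Fst, Smad6, Smad9, Eng and Nog, were kept through the wild-type arrays alone (3.83% of features were), they could only be lower. In 43 of the 45 genes the 2 arrays of one group both lay above those of the other, as in 81.7% of features; the exceptions were Bmpr1a and Chrd. Over the 40 genes detected on all 4 arrays, 16 rose and 14 fell, against 36.3% and 21.8% of such features. In bulk RNA, fewer cells of a type and less RNA per cell cannot be told apart.

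**Figure D1:**
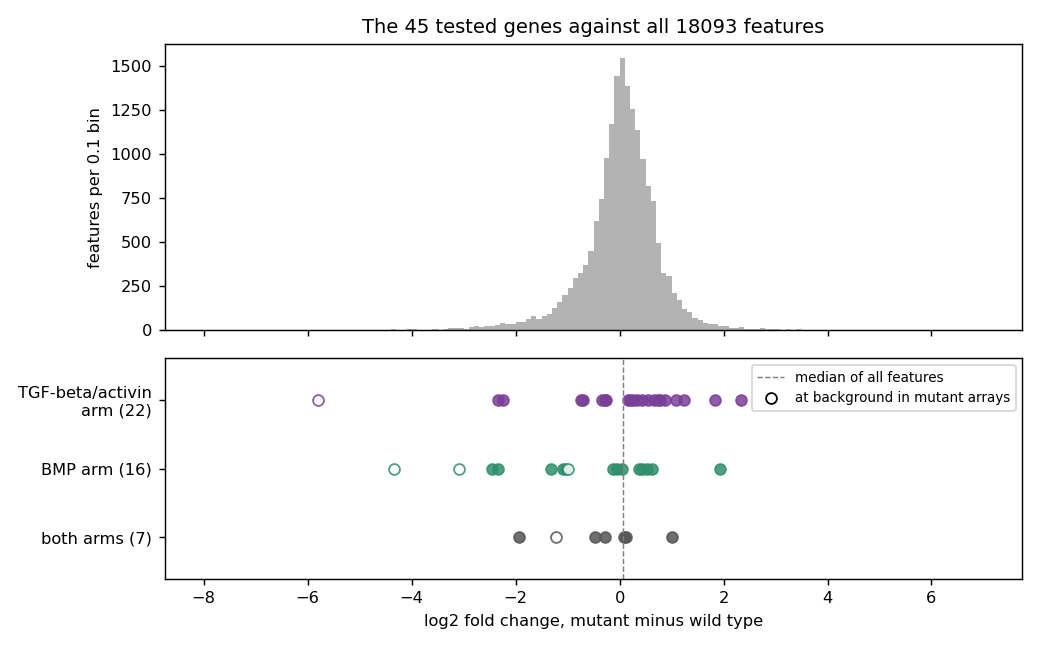
Top, number of features per bin of log2 fold change (mutant minus wild type) for all 18093 features. Bottom, 1 point per tested gene of the set by arm, with open points for genes at background in the mutant arrays; the dashed line is the median of all features at 0.07. Most genes lie within the bulk of the features, with Inhba (2.34) at the right end and Fst at the left end of the TGF-beta/activin arm, and Grem1 (1.93) and Smad6 at the ends of the BMP arm.

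The other 10 genes were not well above background on any array. They were Inhbb, which encodes an activin subunit, the ligands Bmp2, Bmp4, Bmp5, Bmp6, Bmp7, Gdf6 and Gdf10, the receptor Bmpr1b and the decoy receptor Bambi. Their 12 probes lay between 6.07 and 23.2 intensity units, where the 75th percentile of an array lay between 327.0 and 366.6. Of the 8 BMP-type ligands of the set only Gdf5 was detected.

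The ligands of the TGF-beta/activin arm went in both directions. Inhba, the subunit from which activin A is made, read 0.91 and 1.04 on the wild-type arrays and 3.42 and 3.21 on the mutant arrays. Tgfb1, the most widely studied TGF-beta isoform, read -0.75 and -0.74 against 1.06 and 1.13. Tgfb2, another isoform that signals through the same receptors, read 3.37 and 3.39 against 1.02 and 1.05. In each of these genes the groups were far apart and the arrays within a group close together. Inhba rose 5.06-fold (2.34 ± 0.10, limma adjusted p = 0.000444; probe at chr13:16118634-16118693 of mm9). Tgfb1 rose 3.58-fold (1.84 ± 0.059, adjusted p = 0.000278 by limma; chr7:26489877-26489936). Tgfb2 fell 5.08-fold (-2.34 ± 0.055, adjusted p = 0.000177 by limma; chr1:188449333-188449392), and its second probe gave -2.54.

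Tgfb3, the remaining isoform, rose by a small amount, from 3.70 and 3.69 to 4.08 and 4.001 (0.34 ± 0.060). Inha, the alpha subunit that turns an activin subunit into inhibin, an antagonist of activin, fell by 0.28 ± 0.075. Gdf11, a ligand that also acts through SMAD2 and SMAD3, did not pass (0.66 ± 0.26). Without wild-type replicate 1 or 2, Tgfb3 no longer passed (limma adjusted p = 0.0555 and 0.0582). Inha lost its call without either wild-type array (-0.27 and -0.28) or mutant replicate 1 (-0.20). Gdf11 passed as higher with median scaling (0.84, limma adjusted p = 0.0429) and quantile normalization (0.86, adjusted p = 0.0442), but not under every scaling. Without mutant replicate 1 the change of Gdf11 was 0.99.

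Of the 4 latent TGF-beta binding proteins, which hold TGF-beta or shape the matrix around it, 3 rose and 1 fell. Those counts are 75% and 25%, where 34.6% of all features rose and 24.2% fell. Ltbp1 rose from 2.64 and 2.62 to 3.79 and 3.63, a 2.11-fold change (1.08 ± 0.078, limma adjusted p = 0.00115; chr17:75790530-75790589). Ltbp2, the member of the family that does not bind latent TGF-beta, went from 3.54 and 3.69 to 1.41 and 1.34. That is 4.72-fold lower (-2.24 ± 0.079, limma adjusted p = 0.000324; chr12:86124167-86124226). Ltbp4 rose by 0.78 ± 0.064, and a second probe detected on all 4 arrays gave 0.93. The rise of Ltbp3, 0.26 ± 0.055, lost its call when any 1 of the 4 arrays was left out (limma adjusted p = 0.0553 to 0.0798).

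**Figure D2:**
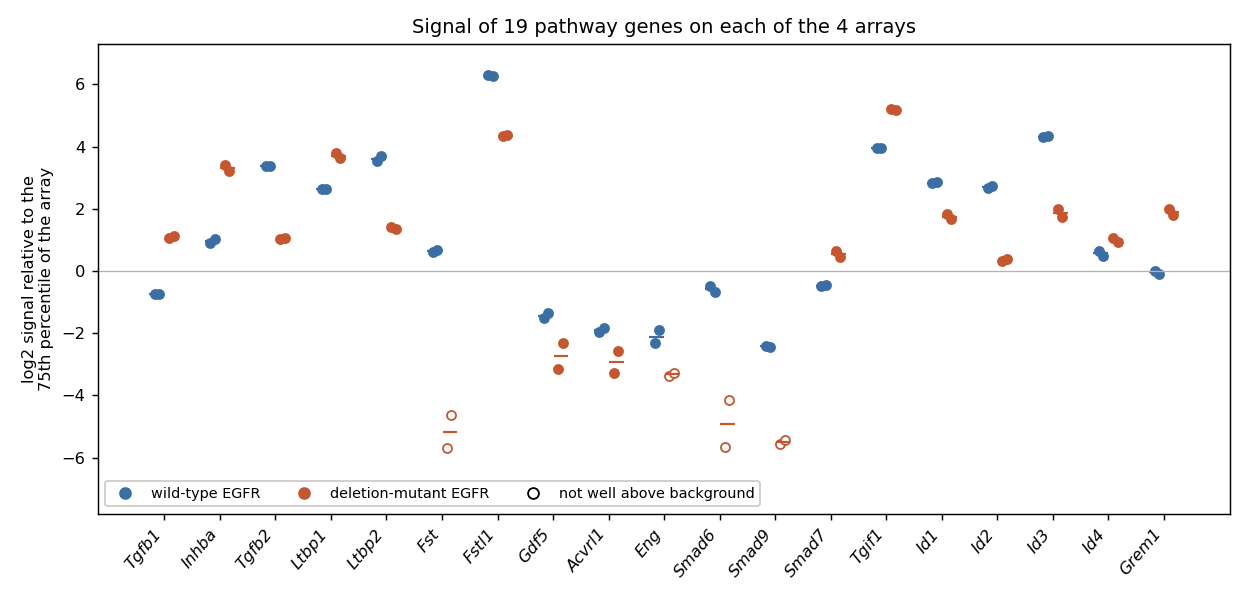
Log2 signal relative to the 75th percentile of the array on each of the 4 arrays, for the 18 genes that passed with a fitted change of at least 2-fold and for Id4. Points are arrays, dashes are group means, and open points are not well above background. Inhba and Tgfb1 are among the genes higher in the mutant, and Tgfb2, Id2 and Id3 among those lower. The groups do not overlap in any of the 19 genes, as in 81.7% of all features, and choosing genes by call and fold favours this.

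Of the 4 receptors of the TGF-beta/activin arm 3 fell (75%, against 24.2% of all features) and 1 did not pass. Tgfbr3 (betaglycan), a co-receptor that presents TGF-beta 2, fell 1.63-fold (-0.70 ± 0.055, limma adjusted p = 0.00134). The type II receptor Tgfbr2 fell 1.27-fold (-0.35 ± 0.054), and the activin type I receptor Acvr1b fell by 0.26 ± 0.062. These are the values of the brightest probes. A second Tgfbr2 probe (-0.26, limma adjusted p = 0.309) and a second, dimmer Acvr1b probe (-0.03, adjusted p = 0.941) did not pass. With the mean of a gene's probes neither gene passed (-0.30, limma adjusted p = 0.0742 for Tgfbr2, and -0.15, adjusted p = 0.478 for Acvr1b). The type I receptor Tgfbr1 did not pass (0.16 ± 0.084), but was higher with median scaling (0.34, limma adjusted p = 0.0209). Acvr1b lost its call when any 1 array was left out (limma adjusted p = 0.0617 to 0.110), and Tgfbr2 missed the threshold with median scaling of the arrays (-0.17, adjusted p = 0.0706).

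In the BMP arm, Acvr1, a type I receptor, rose 1.44-fold (0.53 ± 0.076, limma adjusted p = 0.00585). The type I receptor Bmpr1a (0.05 ± 0.13) and the type II receptor Bmpr2 (-0.13 ± 0.058) did not pass, and the sign of each flipped under other scalings; Bmpr2 passed as lower with the 75th percentile of detected probes (-0.33, limma adjusted p = 0.00913). Acvrl1, the type I receptor best known from endothelium, read -1.97 and -1.82 in wild-type cells and -3.28 and -2.58 in mutant cells, close to background. The groups did not overlap and the change was 2.05-fold (-1.03 ± 0.25, limma adjusted p = 0.0266; chr15:100974010-100974069). Without wild-type replicate 1 or 2 it did not pass (adjusted p = 0.0939 and 0.122), and without mutant replicate 1 it was -0.685.

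Of the receptors that serve both arms, Acvr2a (-0.28 ± 0.13) and Acvr2b (0.13 ± 0.055) did not pass. Acvr2b was higher with median scaling (0.31, limma adjusted p = 0.00977) and with spike-in scaling (0.21, adjusted p = 0.0376), and changed sign under 2 other scalings. Acvr2a passed as lower with the 75th percentile of detected probes (-0.47, limma adjusted p = 0.0401), and was -0.44 without wild-type replicate 2. Eng (endoglin), a co-receptor of endothelial and stromal cells, read -2.30 and -1.91 in the wild type and was at background in the mutant (-3.36 and -3.28). It was at least 2.32-fold lower in the mutant (limma adjusted p = 0.00377; chr2:32537268-32537327). Of the endothelial markers, Cdh5, Cldn5, Emcn, Esam, Tek, Tie1 and Vwf were not detected on any array. Pecam1, detected on all 4, fell as well (-0.40 ± 0.071, limma adjusted p = 0.0111), and Kdr, also detected on all 4, did not pass (-0.03 ± 0.071). The summed log2 level of the list, most of it from Kdr, was 2.79 to 2.89 in the wild type and 2.76 to 2.79 in the mutant. The part of endothelial markers in the fall of Eng was not tested.

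Among the signalling SMADs of the TGF-beta/activin arm, Smad3 rose 1.82-fold, from 2.67 and 2.79 to 3.61 and 3.57 (0.87 ± 0.069, limma adjusted p = 0.00141). Smad2 did not pass (0.21 ± 0.080), nor did the common partner Smad4 (0.08 ± 0.066). Smad2 was higher with median scaling (0.39, limma adjusted p = 0.0213), with spike-in scaling (adjusted p = 0.0386) and with trended variances (adjusted p = 0.0257). Smad4 was higher with median scaling (0.26, limma adjusted p = 0.0343), and its sign flipped under other scalings. Of the BMP SMADs, Smad5 rose 1.55-fold (0.63 ± 0.056, limma adjusted p = 0.00179) and Smad1 did not pass (0.37 ± 0.13). Smad1 passed as higher with median scaling (0.55, limma adjusted p = 0.0254), spike-in scaling (0.45, adjusted p = 0.0332) and trended variances (adjusted p = 0.00935). The mean of its probes passed as well (0.36, limma adjusted p = 0.0151). Smad1 did not pass under every scaling, the lowest change being 0.18, and without wild-type replicate 1 it was 0.54. Smad9 read -2.40 and -2.43 in the wild type and was at background in the mutant (-5.57 and -5.43). The mutant level was lower by at least 1.99-fold (limma adjusted p of the fitted change, not of the bound, 0.000177, probe at chr3:54605068-54605127).

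The inhibitory SMADs went opposite ways. Smad6, which restrains BMP signalling and is itself induced by it, read -0.47 and -0.68 in the wild-type arrays and -5.67 and -4.14 in the mutant arrays. Both mutant readings were at background, and Smad6 was at least 7.12-fold lower in the mutant (limma adjusted p of the fitted change, not of the bound, 0.00393, probe at chr9:63800980-63801039). Smad7, which restrains both arms, rose 2.02-fold, from -0.48 and -0.46 to 0.64 and 0.45 (1.02 ± 0.086, limma adjusted p = 0.0016).

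The ID genes encode helix-loop-helix proteins without a DNA-binding region, which hold back differentiation factors. Of the 4, 3 fell (75%, against 24.2% of all features) and 1 rose (25%, against 34.6%). Id3 read 4.30 and 4.35 in the wild type against 1.99 and 1.74 in the mutant, and Id2 read 2.67 and 2.73 against 0.31 and 0.40. Id1 read 2.82 and 2.86 against 1.85 and 1.66. Each of the 3 was lower on both mutant arrays than on either wild-type array. Id3 fell 5.50-fold (-2.46 ± 0.10, limma adjusted p = 0.000444; chr4:135700075-135700249, the span of a spliced probe). Id2 fell 5.07-fold (-2.34 ± 0.066, adjusted p = 0.00024 by limma; chr12:25778904-25778963), and Id1 2.12-fold (-1.09 ± 0.086, adjusted p = 0.00139 by limma; chr2:152563083-152563142).

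Id4 went the other way, from 0.66 and 0.49 to 1.05 and 0.94, a 1.34-fold rise (0.42 ± 0.089, limma adjusted p = 0.0173; chr13:48358668-48358727). Its call was lost without wild-type replicate 2 or mutant replicate 1 (adjusted p = 0.0713 and 0.0557). Tgfbi, a matrix protein named for its induction by TGF-beta and the member listed as a target of that arm, rose 1.46-fold (0.55 ± 0.074, limma adjusted p = 0.00491).

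Promoter windows of 250 bases upstream of the RefSeq start (GRCm38.p6, gene strand) are printed for Id2 and Id3, the ID genes that fell most, for Id4, which rose, and for the BMP antagonist Grem1, which also rose. Capitals mark CAGAC on either strand (GTCTG on the other), a motif bound by SMAD3 and SMAD4, and GGCGCC, its own reverse complement, a GC-rich motif bound by SMADs; the motifs do not overlap each other here.
Id2 (chr12:25096093-25096342, minus strand): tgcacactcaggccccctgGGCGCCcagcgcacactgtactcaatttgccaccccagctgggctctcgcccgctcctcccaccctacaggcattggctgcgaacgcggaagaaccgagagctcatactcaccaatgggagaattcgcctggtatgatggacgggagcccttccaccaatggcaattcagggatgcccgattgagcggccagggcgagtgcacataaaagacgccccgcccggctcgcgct
Id3 (chr4:136143572-136143821, plus strand): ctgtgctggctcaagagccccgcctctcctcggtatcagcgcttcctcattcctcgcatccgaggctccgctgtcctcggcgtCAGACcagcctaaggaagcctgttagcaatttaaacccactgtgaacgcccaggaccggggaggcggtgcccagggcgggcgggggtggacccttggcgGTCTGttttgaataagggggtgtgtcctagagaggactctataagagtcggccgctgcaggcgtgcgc
Id4 (chr13:48260866-48261115, plus strand): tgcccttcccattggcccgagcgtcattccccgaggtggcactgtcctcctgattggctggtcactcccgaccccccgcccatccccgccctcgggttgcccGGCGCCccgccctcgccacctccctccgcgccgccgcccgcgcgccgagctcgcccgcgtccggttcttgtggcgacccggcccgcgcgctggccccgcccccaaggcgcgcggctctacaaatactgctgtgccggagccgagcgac
Grem1 (chr2:113758649-113758898, minus strand): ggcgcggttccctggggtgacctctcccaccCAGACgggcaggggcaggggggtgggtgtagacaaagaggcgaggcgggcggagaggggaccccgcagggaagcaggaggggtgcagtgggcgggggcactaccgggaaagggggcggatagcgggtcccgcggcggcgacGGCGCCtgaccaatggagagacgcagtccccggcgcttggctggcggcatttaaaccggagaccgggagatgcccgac
The Id3 window held CAGAC at 2 places and no GGCGCC, the Id2 and Id4 windows held 1 GGCGCC each and no CAGAC, and the Grem1 window held 1 of each. Id2 fell and Id4 rose, and the part of either motif in these changes was not tested. Across all 32851 windows of this length in the table, 42.2% held CAGAC and 9.59% held GGCGCC. Of the 51 windows of 39 genes of the set, 24 (47.1%) held CAGAC and 13 (25.5%) held GGCGCC. Of these genes 33 were tested, and a gene with several windows counts more than once. The GC content of the windows was not compared. The window of Smad6 held neither. A match is a string of letters in the window and not a measured binding site.

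**Figure D3:**
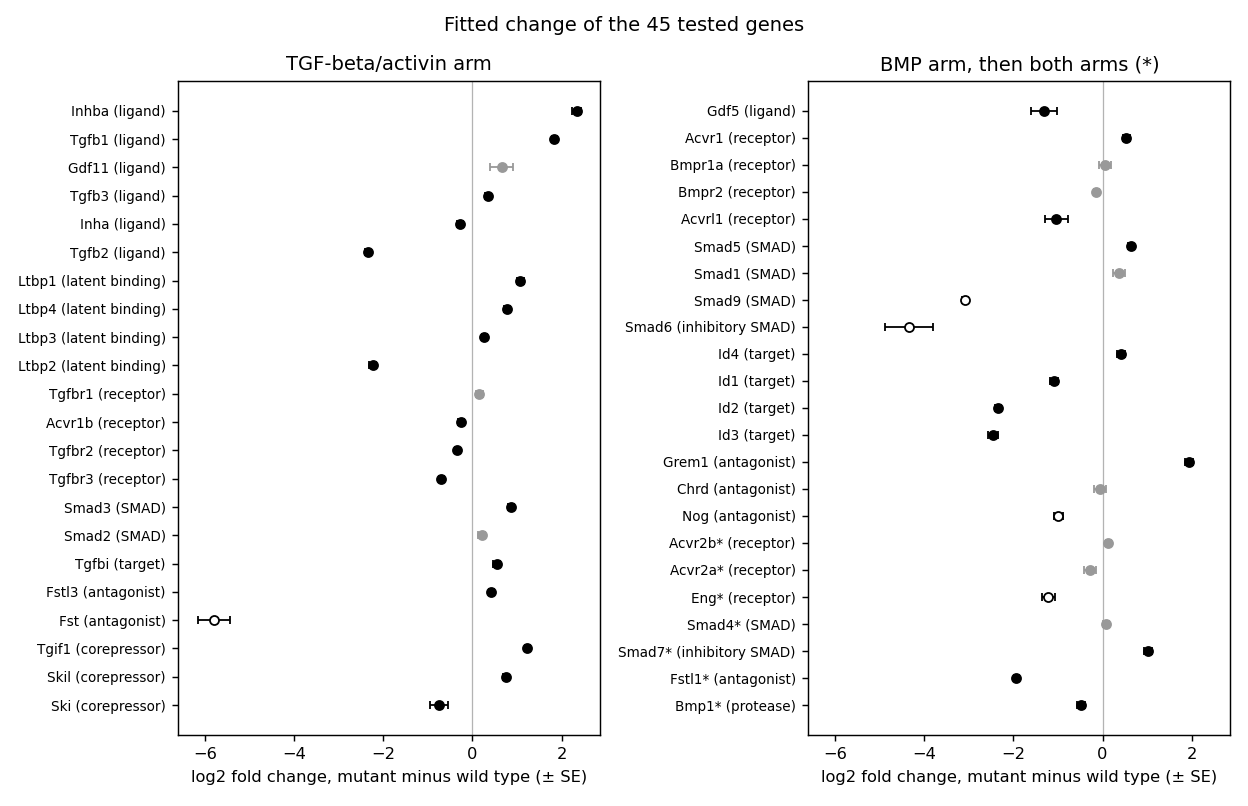
Log2 fold change (mutant minus wild type) with its standard error for each of the 45 tested genes, by arm and role. Black points passed, grey points did not, and open points are at background in the mutant arrays, where the fitted value is no bound. Inhba (2.34), Grem1 (1.93) and Tgfb1 (1.84) lie farthest right, and Fst, Smad6 and Smad9 farthest left.

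Among the secreted antagonists, Fst (follistatin), which binds and neutralises activin, was well above background in the wild type (0.62 and 0.66) and at background in the mutant (-5.68 and -4.64). The fall was at least 16.5-fold (limma adjusted p of the fitted change, not of the bound, 0.000869, probe at chr13:115243565-115243624). Fstl3, a relative that also binds activin, rose 1.34-fold (0.42 ± 0.058). Grem1 (gremlin), which binds BMPs, rose 3.82-fold, from 0.01 and -0.10 to 1.98 and 1.79 (1.93 ± 0.093, limma adjusted p = 0.000543; chr2:113589227-113589286).

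Nog (noggin), another BMP antagonist, was near background in the wild type (-2.44 and -2.68) and at background in the mutant (-3.55 on both arrays). The bound for Nog was at least 1.80-fold lower (limma adjusted p of the fitted change, not of the bound, 0.00228). Chrd (chordin) did not pass (-0.06 ± 0.13), and its sign flipped under other scalings. A second Chrd probe, at background in the mutant, gave -0.39, and the mean of the probes passed as lower (-0.22, limma adjusted p = 0.0301). Fstl1, a secreted glycoprotein related to follistatin, read 6.29 and 6.27 in the wild type against 4.34 and 4.36 in the mutant. It fell 3.81-fold (-1.93 ± 0.055, limma adjusted p = 0.00024; chr16:37836492-37836551). Bmp1, a protease that cleaves procollagen and chordin and no ligand, fell 1.39-fold (-0.48 ± 0.084).

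Gdf5, the single BMP-type ligand of the set that was tested, read -1.53 and -1.35 in the wild type against -3.17 and -2.33 in the mutant. Its brightest probe fell 2.48-fold (-1.31 ± 0.30, limma adjusted p = 0.0222; chr2:155766801-155766860). A second probe, at background in the wild type, gave 0.63 in the other direction, and the mean of the probes did not pass (-0.34, adjusted p = 0.202). The call of the brightest probe was lost without wild-type replicate 1 or 2 (limma adjusted p = 0.0844 and 0.108). Of the 14 genes with at least 2 kept probes, Gdf5 alone had probes that disagreed in direction. Outside the set, the BMP ligand Bmp8a, named after its values were seen, was detected on all 4 arrays and did not pass (-0.47 ± 0.15, limma adjusted p = 0.0533).

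The nuclear corepressors bind SMAD complexes and hold back transcription. Tgif1, a homeodomain corepressor, rose 2.35-fold, from 3.96 on both wild-type arrays to 5.20 and 5.18 (1.23 ± 0.054, limma adjusted p = 0.000473; chr17:71193629-71193688). Skil (SnoN), itself a target of TGF-beta, rose 1.68-fold (0.74 ± 0.061, limma adjusted p = 0.00146), whereas its relative Ski fell by 0.75 ± 0.21. Without wild-type replicate 1 the change of Ski was -0.48 and it did not pass (limma adjusted p = 0.0709), nor did it without mutant replicate 1 (adjusted p = 0.0959).

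Set side by side, 11 of 22 tested genes of the TGF-beta/activin arm rose and 8 fell, with a median change of 0.30, against 0.07 for all features. Those counts are 50% and 36.4%, where 34.6% of all features rose and 24.2% fell. In the BMP arm 4 of 16 rose (25%) and 8 fell (50%), with a median of -0.56. That median rests on the 3 genes at background in the mutant, Smad6, Smad9 and Nog: over the 13 BMP genes detected on all 4 arrays it was -0.06, with 4 higher and 5 lower. The TGF-beta/activin median over its 21 genes detected on all 4 arrays was 0.34. Of the 7 tested genes of both arms 1 rose and 3 fell (median -0.28). The count of TGF-beta/activin genes that fell was 5 without wild-type replicate 1 or mutant replicate 1, and 4 with median scaling. The difference between the arms was not tested.

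Ligands and latent binding proteins of the TGF-beta/activin arm stood on both sides among genes with a fitted change of at least 2-fold. In the TGF-beta/activin arm the 4 that rose were the ligands Inhba and Tgfb1, the latent binding protein Ltbp1 and the corepressor Tgif1. The 3 that fell were the ligand Tgfb2, Ltbp2 and the activin antagonist Fst. In the BMP arm the 7 that fell were the ligand Gdf5, the receptor Acvrl1, Smad9 (by its fitted change, its bound being 1.99-fold), Smad6 and the targets Id1, Id2 and Id3, and the 1 that rose was the antagonist Grem1.

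The scaling of the arrays shifts all genes together. Median scaling, which the deposited log2 matrix also carries, raised the median of all features by 0.18, and scaling on the 75th percentile of detected probes lowered it by 0.19 on the log2 scale. With median scaling 22 genes of the set rose and 15 fell, and with the percentile of detected probes 13 rose and 21 fell. No gene was called in the opposite direction under any of the 5 scalings tried, and 28 of the 35 genes that passed kept their call under all of them. The other 7 were Tgfb3, Inha, Ltbp3, Tgfbr2, Acvr1b, Ski and Id4. Both median scaling and the deposited matrix count among the 5 scalings, and they gave nearly the same changes (median of all features 0.246 and 0.247).

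Further genes of the pathway were followed by list. The counts and medians of these lists are those of the main setting and were not recomputed under other scalings. Of 27 tested targets of TGF-beta and SMAD signalling in fibroblasts, 20 fell (74.1%, against 24.2% of all features) and 6 rose (22.2%, against 34.6%). The median was -0.90, or -0.71 over the 25 detected on all 4 arrays. Thbs1 (thrombospondin 1), a matrix protein that activates latent TGF-beta, fell 32.2-fold (-5.01 ± 0.094). Postn (periostin) fell by 4.85 on the log2 scale and Lox (lysyl oxidase), which crosslinks collagen, fell 16.7-fold (-4.06 ± 0.066). Il11, a cytokine of the interleukin 6 family, rose 6.95-fold (2.80 ± 0.074). Pmepa1, which sequesters receptor SMADs, rose 3.21-fold (1.68 ± 0.083), and Plod2, a lysyl hydroxylase of collagen, rose 3.03-fold (1.60 ± 0.061). The 6 genes named here passed with limma adjusted p between 0.000146 and 0.000564.

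Of the fibroblast markers, 8 of 10 fell (80%, against 24.2% of all features) and 1 rose (10%, against 34.6%). The summed log2 level of that list was 10.90 to 10.95 in the wild type and 10.43 to 10.47 in the mutant. The lists share 4 genes, all of which fell, and without them 16 of 23 TGF-beta targets fell, where 24.2% of all features did. The part of the lower fibroblast markers in the fall of the targets was not tested. The summed level of the epithelial list was -0.49 to -0.35 in the wild type and -0.02 to 0.02 in the mutant. Krt8, at background in the wild type, was at least 2.79-fold higher in the mutant (limma adjusted p of the fitted change, not of the bound, 0.00961). That of the leukocyte list was 5.24 to 5.32 and 4.68 to 4.69, most of it from Itgam, which fell 1.89-fold. On the same list Cd14 rose 5.59-fold (2.48 ± 0.089, limma adjusted p = 0.000327), and Cd3e, Cd68 and Csf1r did not pass.

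**Figure D4:**
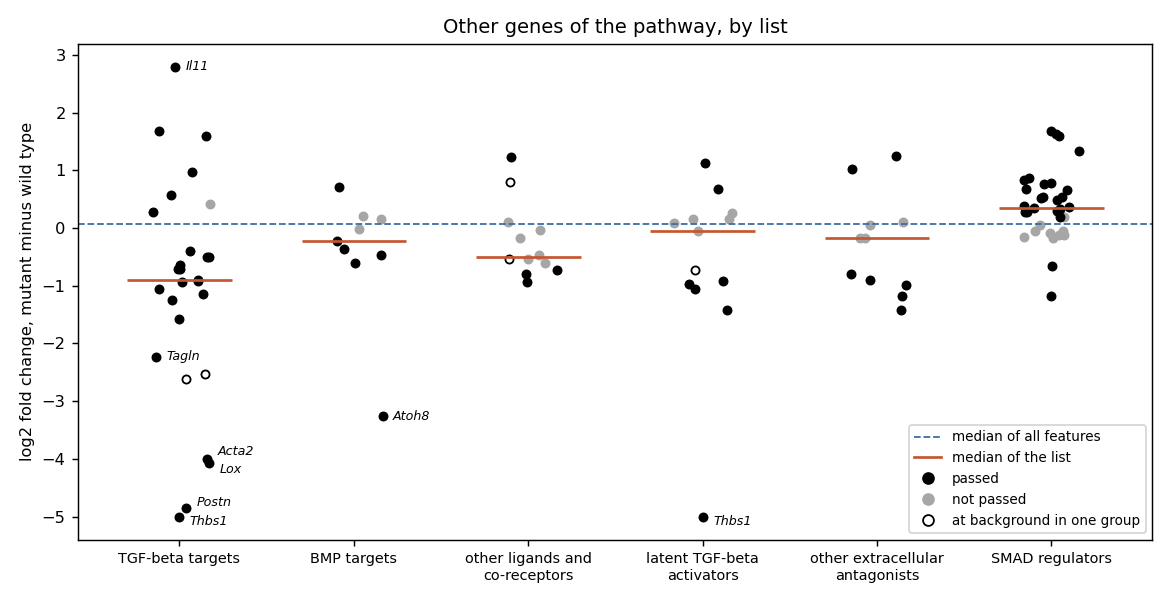
Log2 fold change (mutant minus wild type) of every tested gene on 6 further lists of the pathway; black points passed, grey did not, open points were at background in 1 group, red bars are list medians and the dashed line is the median of all features. The TGF-beta targets extend from Il11 at 2.80 to Thbs1 at -5.01 with a median of -0.90, and the SMAD regulators cluster above 0 with a median of 0.34.

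Of 9 tested targets of BMP signalling other than the ID genes and inhibitory SMADs, 5 fell (55.6%), 1 rose (11.1%) and 3 did not pass, against 24.2% and 34.6% of all features (median -0.23). Atoh8, a helix-loop-helix factor, fell 9.61-fold, from 0.56 and 0.71 to -2.78 and -2.48 (-3.26 ± 0.13, limma adjusted p = 0.000388). Gata3, a zinc-finger transcription factor, fell by 0.61 on the log2 scale and Tnfrsf11b (osteoprotegerin) fell by 0.47. Runx2, the bone transcription factor, rose by 0.71 ± 0.12. Gata3 missed the threshold without wild-type replicate 2 (-0.46, limma adjusted p = 0.0571) and Runx2 without wild-type replicate 1 (0.63, adjusted p = 0.0519).

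Of 12 tested further ligands and co-receptors, 2 rose (16.7%) and 4 fell (33.3%), against 34.6% and 24.2% of all features (median -0.50). Rgmb, a BMP co-receptor, rose 2.34-fold (1.23 ± 0.077). Gdf1, which shares a transcript with Cers1 so that the genes cannot be told apart, fell 1.92-fold, and Tdgf1 (cripto), a co-receptor of nodal, fell 1.66-fold. Of 13 activators of latent TGF-beta, 2 rose (15.4%) and 6 fell (46.2%), against the same shares (median -0.06). The integrin subunit Itgb3 rose 2.20-fold and the protease Furin, which cleaves the TGF-beta precursor, 1.60-fold. Fbn1 (fibrillin 1), to which latent complexes bind, fell 2.67-fold and the protease Mmp2 fell 2.08-fold, besides Thbs1. The genes named here had limma adjusted p between 0.000586 and 0.00411, Thbs1 apart.

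Of 11 further antagonists, 2 rose (18.2%) and 5 fell (45.5%), against 34.6% and 24.2% of all features (median -0.17). The protease Htra1 rose 2.02-fold (1.02 ± 0.059). Nbl1, a BMP antagonist, fell 2.68-fold (-1.42 ± 0.13). Bmper, a BMP-binding protein, fell 2.27-fold, and the proteoglycan Bgn (biglycan) fell 1.99-fold. These 4 genes had limma adjusted p between 0.00073 and 0.00178.

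Of the regulators and partners of SMADs inside the cell, 22 of 33 tested rose (66.7%, against 34.6% of all features), 2 fell (6.06%, against 24.2%) and 9 did not pass, with a median of 0.34. Besides Pmepa1, the transcription factor Runx1 rose 3.09-fold (1.63 ± 0.059) and Tsc22d1, a leucine-zipper protein induced by TGF-beta, rose 2.53-fold (1.34 ± 0.054). Tob1, an antiproliferative protein, fell 2.25-fold (-1.17 ± 0.097), and the phosphatase Ctdsp2 fell 1.59-fold (-0.67 ± 0.065). Their limma adjusted p lay between 0.000327 and 0.00212.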

How the data were processed

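Total RNA of 4 samples was hybridised as Cy3-labelled cRNA to 1-colour mouse arrays, per the labels. Per the file headers, the scanner software was Feature Extraction 10.10.1.1 (protocol GE1_1010_Sep10), and probes are placed on mm9. The deposited text files hold each spot's processed signal as intensity, background-subtracted on a linear scale. The log2 matrix deposited by the authors differs from these signals by a constant within an array (median 4.4367 on the 1 array for which it was taken).

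Spots marked as uneven or as population outliers were left out (116 to 142 per array). From log2 intensities the 75th percentile over non-control probes of the array was subtracted. There were 55681 non-control probes; 11 lost all spots on an array, and 25162 stood well above background throughout at least 1 group. A feature was a gene's brightest kept probe or an unnamed probe. The comparison used lmFit and eBayes of limma 3.58.1 (residual df 2, prior df 2.18, prior SD 0.0747, median SE 0.0735) in R 4.3.3 with the data.table package (version 1.17.8). Benjamini-Hochberg adjustment ran over 18093 features with a threshold of 0.05 (11604 had an unadjusted p under 0.05). An exact permutation test of 2 against 2 arrays cannot go below 0.333. The number of arrays limits the precision. For a gene at background in the mutant, the bound sets the wild-type mean against a mutant mean in which each array counts its own signal or its lowest detected signal, whichever is higher. The adjusted p given beside a bound is that of the fitted change, and the bound itself was not tested.

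The members and lists were chosen with earlier results of these data known. Values on every array are given for genes of the set that passed with a fold or bound of at least 2. From each further list up to 3 genes per direction were named, those with the largest change among genes detected on all 4 arrays; 1 such gene is not reported here. The accession of 44 of the 45 tested probes matched RefSeq under the same symbol. The position of probes within exons was not analysed here. Arrays of the same replicate number shared the first slide position, so number and position cannot be told apart. The deviations of same-numbered arrays from their group means had a correlation of 0.0472, and the main fit did not pair them. With 2 arrays per group that value is the same for both numbers by construction. Alternatives were other scalings, normexp with an offset of 50, quantile normalization, the authors' values, background filters, probe summaries, trended robust variances, the replicate block and leaving out each array. The procedure was tested on simulated data. Plots and summaries used matplotlib 3.10.9 and pandas 2.3.3 under Python 3.11.15.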

Additional observations from a re-analysis of the deposited data

How the results depend on the processing

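Of the 16 genes that rose and 19 that fell, 13 to 15 and 14 to 18 passed when 1 array was left out. Without a background filter 3741 features rose and 2725 fell, 12 genes of the set fell and 4 of the TGF-beta/activin arm did. With the 75th percentile of detected probes 6727 features fell, and with normexp 1282 changed at least 2-fold. The count of TGF-beta/activin genes that fell was 4 with median scaling and with the authors' log2 values, 5 with the replicate block and 5 to 7 with 1 array left out. That of the BMP arm was 5 when detection on all 4 arrays was required. The median of the TGF-beta/activin arm was 0.26 with normexp and without a filter, 0.48 with median scaling and the authors' values, 0.11 with the percentile of detected probes and with quantile normalization, 0.39 with spike-in scaling (0.385) and 0.34 over genes detected on all arrays. The median of the BMP arm was -0.20 with normexp, -0.38 with median scaling and the authors' values, -0.76 with the percentile of detected probes, -0.48 with spike-in scaling, -0.49 with quantile normalization, -0.10 without a filter, -0.056 over genes detected on all arrays, -0.28 with the mean of a gene's probes or every probe, and -0.60 to -0.42 with 1 array left out. The cause of these shifts was not tested.

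Some genes that did not pass changed sign. With the percentile of detected probes the change was -0.038 for Tgfbr1, -0.14 for Bmpr1a, -0.062 for Acvr2b and -0.11 for Smad4. With quantile normalization it was -0.10 for Bmpr1a, 0.13 for Chrd (0.135), -0.0017 for Acvr2b and -0.15 for Smad4. Bmpr2 read 0.045 with median scaling and 0.046 with the authors' values, and Chrd 0.12 with both and 0.025 with spike-in scaling. With 1 array left out Bmpr1a ranged from -0.11 (without wild-type replicate 2) to 0.22, and Chrd from -0.21 to 0.093 (without mutant replicate 1; 0.016 without wild-type replicate 2).

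With the replicate number as a block 17 genes of the set rose and 16 fell: Inha (limma adjusted p = 0.0572), Acvr1b (0.0536) and Ski (0.0777) no longer passed and Gdf11 did (0.0232). The deviations of same-numbered arrays were nearly uncorrelated, and the block leaves 1 residual degree of freedom. A signal near background limits Gdf5, Acvrl1, Gdf11, Nog, Ski, Chrd, Smad9, Eng and the 10 genes that were not tested.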
